A study of Homo sapiens with 20 samples.

Results

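A set of 10 genes for extracellular matrix proteins outside the collagen family were followed through nickel exposure of a human bronchial epithelial cell line. They are FN1 (fibronectin), FBN1 and FBN2 (fibrillins), POSTN (periostin), SPARC, TNC (tenascin-C), THBS1 and THBS2 (thrombospondins), LOX and LOXL2 (lysyl oxidases). They were chosen by gene symbol, and all 10 were found among the 25411 RefSeq genes counted in each of 20 RNA-seq libraries. The cells were BEAS-2B, an immortalised line from human bronchial epithelium grown in Dulbecco's medium, and nickel was given as NiCl2. The groups were Ni_3D (3 days of nickel, 2 libraries), Ni_3D+14D (3 days of nickel and a further 14 days, 2 libraries), Control_3D (unexposed, 3 days, 4 libraries), Ni_6W (6 weeks of nickel, 2 libraries), Ni_6W+2W (6 weeks of nickel, then washing and 2 weeks without nickel, 2 libraries), Ni_clone (6 libraries) and Control_6W (unexposed, 6 weeks, 2 libraries). Each Ni_clone library came from a colony picked after cells that had been in nickel for 6 weeks were plated sparsely and grown without nickel, so it is 1 clone and the spread among these 6 libraries is a spread between clones. The labels give 100 mM NiCl2 for the cells the clones came from and only a range of unnamed concentrations for the others. They do not say how the 3-day exposure was done or whether the further 14 days were free of nickel. Nor do they say whether replicates were grown as separate cultures; the p-values below are set by how far these libraries differ from each other, which may be technical.

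Fibronectin is secreted as a dimer and assembled by integrins into fibrils on which other matrix proteins are laid down. Fibrillins form the microfibrils that hold latent TGF-beta and scaffold elastic fibres, and lysyl oxidases crosslink collagen and elastin. SPARC, tenascin-C, thrombospondins and periostin are matricellular proteins, which change how cells attach and signal more than they carry load. Fibronectin and several of the others are widely used as markers of the mesenchymal state, and ZEB1, a transcriptional repressor of epithelial genes named in the title of the study, is a driver of that state.

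Reads summed over genes ranged from 8609243 to 88848786 per library, a 10.3-fold range, and the 10 genes took between 0.231% and 0.758% of them. Levels below are CPM, the reads of a gene relative to all reads of its library, scaled by the trimmed mean of M-values (TMM), and levels are compared between genes only as RPKM, which divides by gene length. In cultured cells fewer cells of a kind and less RNA per cell cannot be told apart. Of the 5 markers of bronchial basal cells, TP63 was at most 0.214 CPM, KRT15 0.673 CPM, KRT14 2.94 CPM and KRT5 4.04 CPM in any library. NGFR, also on that list, lay at 0.491 to 10.7 CPM. KRT8 and KRT18, keratins of simple epithelium, lay at 186 to 836 and 134 to 388 CPM, while CDH1, the epithelial cadherin, had a median of 0.475 CPM. CDH1 was highest in Ni_3D replicate 1, at 29.1 CPM. KRT19 (38.3 CPM), EPCAM (9.59 CPM), ESRP1 (7.32 CPM) and GRHL2 (5.83 CPM), also on the simple epithelial list, were highest in that library too. Of the 6 fibroblast markers, COL1A1 lay at 533 to 6780 CPM and THY1 at 335 to 648 CPM, but PDGFRA did not pass 0.182 CPM and DCN did not pass 0.0446 CPM. COL1A2 lay at 0.182 to 98.4 CPM and LUM did not pass 1.4 CPM, so the sum of the 6 is mostly COL1A1 and THY1. The summed level of those 6 markers ranged from 868 to 1790 CPM in Ni_3D, 3030 to 3520 CPM in Ni_3D+14D and 2280 to 4970 CPM in Control_3D, and from 2170 to 4320 CPM in Ni_6W, 3040 to 5150 CPM in Ni_6W+2W, 2760 to 7330 CPM in Ni_clone and 3290 to 4440 CPM in Control_6W. Endothelial markers summed to at most 3.34 CPM. Of the 4 immune markers, PTPRC, the general leukocyte marker, did not pass 0.307 CPM, CD3E 0.0504 CPM and LAPTM5 3.78 CPM. The remaining immune marker, CD68, lay at 22.4 to 81.7 CPM.

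Libraries stood apart within both 3-day groups. Control_3D replicates 1 and 2 had 11.9 and 12.4 CPM of ZEB1, and replicates 3 and 4 had 1.05 and 1.76 CPM. Control_6W had 0.986 and 0.608 CPM, and all 14 nickel-exposed libraries lay between 7.75 and 18.1 CPM. The replicate 1 libraries of Ni_3D and of Control_3D also held transcripts of oestrogen-responsive luminal breast cells: TFF1 was at 33.3 CPM in Ni_3D replicate 1 and 20.1 CPM in Control_3D replicate 1, against at most 0.0387 CPM in the other libraries of these groups. Results that rest on these libraries are therefore also given with either pair of controls left out, or without both replicate 1 libraries.

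The promoters of 5 of the genes are shown because these genes carry the results below: LOX, SPARC and POSTN were called in the 3-day comparison, FBN1 in the clones, and FN1 split the controls. Each is the 300-base RefSeq window on build GRCh38.p14, from 250 bases before to 50 after a gene start, 5′ to 3′ on the gene's strand; the counts themselves were made on hg19. Capitals mark matches on either strand to ACGTG (a form of the hypoxia response element core), CAGGTG (the E-box bound by ZEB1), TGACGTCA (the cAMP response element), TATAAA (the TATA box) and TGANTCA (the AP-1 site). The other form of that core, GCGTG, was not searched for.
LOX, chr5:122078210-122078509, minus strand: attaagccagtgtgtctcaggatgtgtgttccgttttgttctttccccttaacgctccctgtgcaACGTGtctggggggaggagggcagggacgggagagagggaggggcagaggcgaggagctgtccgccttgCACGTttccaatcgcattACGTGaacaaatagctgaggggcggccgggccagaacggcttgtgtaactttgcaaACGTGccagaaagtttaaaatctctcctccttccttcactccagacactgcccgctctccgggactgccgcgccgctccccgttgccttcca
POSTN, chr13:37598719-37599018, minus strand: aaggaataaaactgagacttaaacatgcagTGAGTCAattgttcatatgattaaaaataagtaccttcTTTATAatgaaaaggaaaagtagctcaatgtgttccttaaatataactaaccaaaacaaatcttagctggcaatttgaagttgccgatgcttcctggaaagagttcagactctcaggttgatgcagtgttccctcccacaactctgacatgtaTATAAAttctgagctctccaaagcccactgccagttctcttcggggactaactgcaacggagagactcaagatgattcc
SPARC, chr5:151686866-151687165, minus strand: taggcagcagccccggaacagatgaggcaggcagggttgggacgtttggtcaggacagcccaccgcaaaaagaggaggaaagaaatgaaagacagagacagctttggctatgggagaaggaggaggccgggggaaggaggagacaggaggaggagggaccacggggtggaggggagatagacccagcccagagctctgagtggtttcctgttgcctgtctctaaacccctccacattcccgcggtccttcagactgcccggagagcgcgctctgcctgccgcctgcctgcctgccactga
FBN1, chr15:48644921-48645220, minus strand: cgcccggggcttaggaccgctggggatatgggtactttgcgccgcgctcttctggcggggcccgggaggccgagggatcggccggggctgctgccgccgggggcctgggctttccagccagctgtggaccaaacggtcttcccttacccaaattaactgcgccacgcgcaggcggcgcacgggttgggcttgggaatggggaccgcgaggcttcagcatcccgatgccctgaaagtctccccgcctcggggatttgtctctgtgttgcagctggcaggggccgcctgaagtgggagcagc
FN1, chr2:215436019-215436318, minus strand: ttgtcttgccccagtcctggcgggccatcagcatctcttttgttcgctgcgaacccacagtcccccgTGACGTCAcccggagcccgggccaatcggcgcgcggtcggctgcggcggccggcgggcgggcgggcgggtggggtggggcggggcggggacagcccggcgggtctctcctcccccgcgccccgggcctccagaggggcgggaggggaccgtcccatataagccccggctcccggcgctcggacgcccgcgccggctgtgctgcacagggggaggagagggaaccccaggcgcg

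The LOX window shown is 1 of 3 RefSeq windows of that gene. It held 4 ACGTG matches, at 185, 116, 98 and 42 bases before the start. At least 1 match was present in 21.4% of the 35116 windows of all genes, and at least 4 in 0.843%. The other 2 LOX windows held 1 match each. The FN1 window held 1 cAMP response element, at 183 bases before the start, a match found in 1.85% of all windows. The POSTN window held 2 TATAAA matches, at 182 and 29 bases before the start (at least 2 in 2.36% of windows), and 1 AP-1 match (7.71% of windows). The FBN1 and SPARC windows held none of the 5 sequences searched for. CAGGTG, found in 20.6% of all windows, was in none of the 5 windows shown, and in each of the other 2 LOX windows once. Among the genes not shown, THBS2 held 2 ACGTG matches and 1 TATA box, and FBN2 held a palindromic CACGTG that counts as 2 ACGTG matches. A match is a run of letters, not a bound site.

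On hg19, the build of the counts, the authors' rows place FN1 at chr2:216279384-216300791, FBN1 at chr15:48700503-48937985, FBN2 at chr5:127593601-127873735 and POSTN at chr13:38136719-38172981. SPARC is at chr5:151040657-151066615, TNC at chr9:117781854-117880536, THBS1 at chr15:39873280-39889668, THBS2 at chr6:169615875-169654209 and LOX at chr5:121398890-121414055. THBS1 is on the plus strand and the other 8 on the minus strand. These are the positions listed in the rows, which may not span the whole gene. The FN1 row merges 6 RefSeq transcripts, so splice forms of fibronectin cannot be told apart here.

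**Figure D1:**
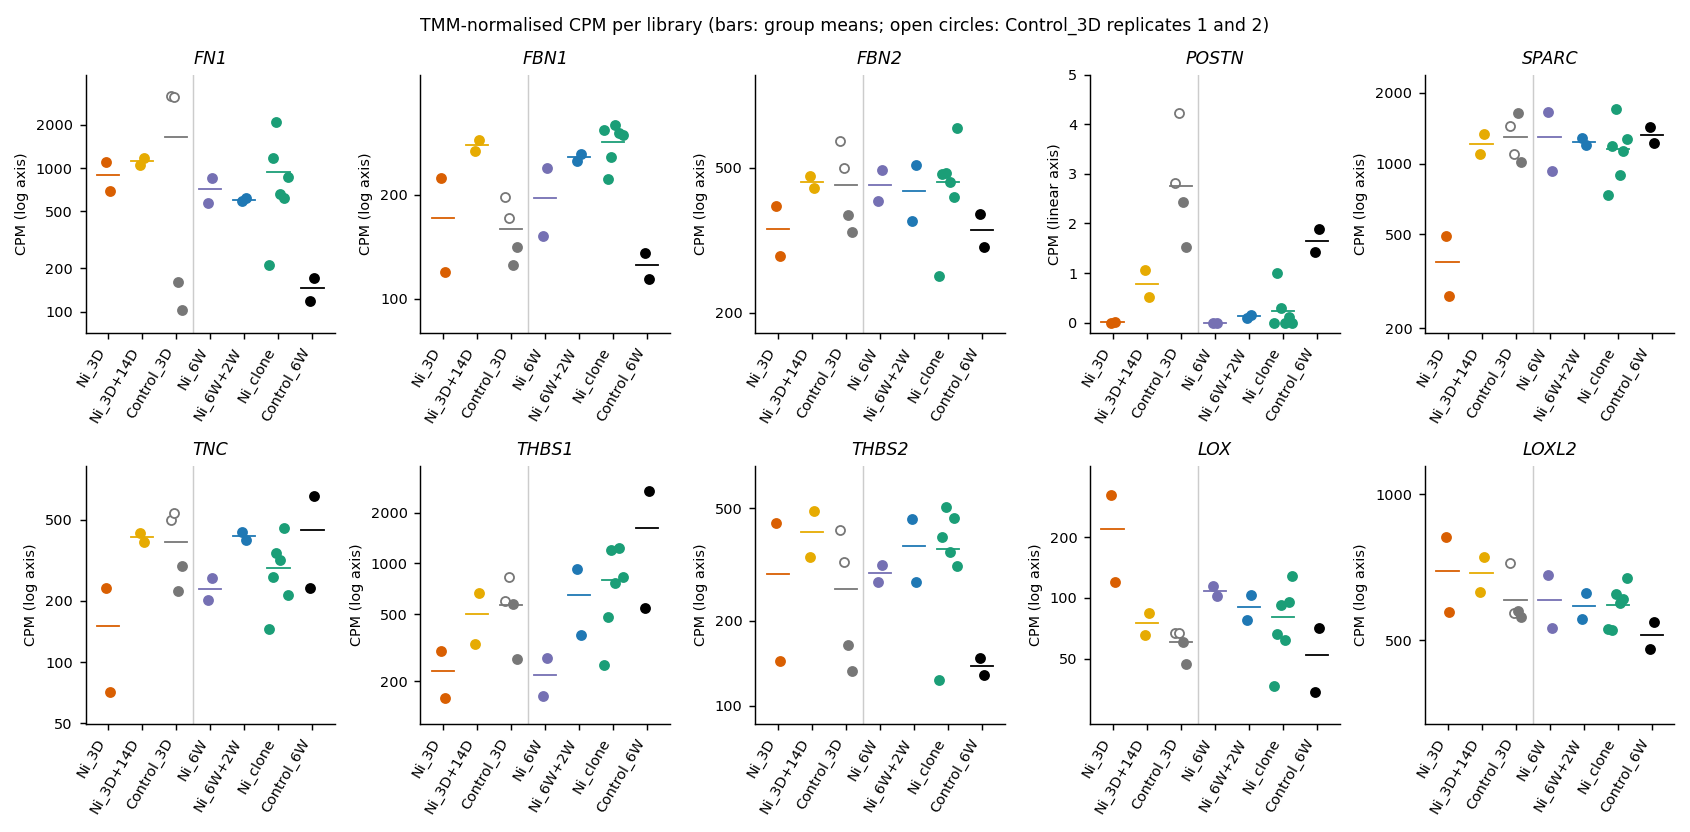
Each panel plots 1 gene, with a point per library, its group on the x axis and its TMM-normalised CPM on the y axis (log axes, except a linear one for POSTN); bars are group means and open circles are Control_3D replicates 1 and 2. FN1 splits Control_3D into 2 libraries at 3185 and 3114 CPM and 2 at 161 and 102 CPM, LOX stands highest and SPARC lowest in Ni_3D, and POSTN lies below 5 CPM everywhere.

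Per length, SPARC was the most abundant of the 10 in 16 of the 20 libraries, LOXL2 in 2, and FN1 and THBS1 in 1 each. POSTN was last in all 20. Mean RPKM over all libraries was 281 for SPARC, 140 for LOXL2, 101 for THBS1, 99.4 for FN1, 46.3 for THBS2, 35.1 for FBN2, 33.5 for TNC, 16.6 for FBN1, 15.5 for LOX and 0.246 for POSTN. The place of FN1 moved most, from 1 to 7 among the 10, and that of LOXL2 stayed between 1 and 4. In CPM, FN1 differed 31.1-fold between its highest and lowest library, THBS1 17.0-fold, LOX 9.43-fold, TNC 9.25-fold and SPARC 6.23-fold. LOXL2 differed only 1.70-fold and FBN2 2.54-fold.

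FN1 had 3 levels. It was at 3185 and 3114 CPM in Control_3D replicates 1 and 2. It was at 1093 and 692 CPM in Ni_3D, 1045 and 1176 CPM in Ni_3D+14D, 567 and 855 CPM in Ni_6W and 589 and 618 CPM in Ni_6W+2W. The remaining controls were lowest, with 161 and 102 CPM in Control_3D replicates 3 and 4 and 118 and 173 CPM in Control_6W. All 8 uncloned nickel-exposed libraries thus lay below the first pair of 3-day controls and above the other 4 controls. The clones were spread more widely, from 212 CPM in clone 1 to 2076 CPM in clone 3. In order of group means, Ni_3D+14D (1110 ± 92.6 CPM, SD, n = 2), Ni_clone (935 ± 643 CPM, n = 6), Ni_3D (892 ± 284 CPM, n = 2), Ni_6W (711 ± 204 CPM, n = 2) and Ni_6W+2W (604 ± 21.1 CPM, n = 2) each overlapped the next, and Control_6W (145 ± 38.7 CPM, n = 2) lay apart below Ni_6W+2W.

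**Figure D2:**
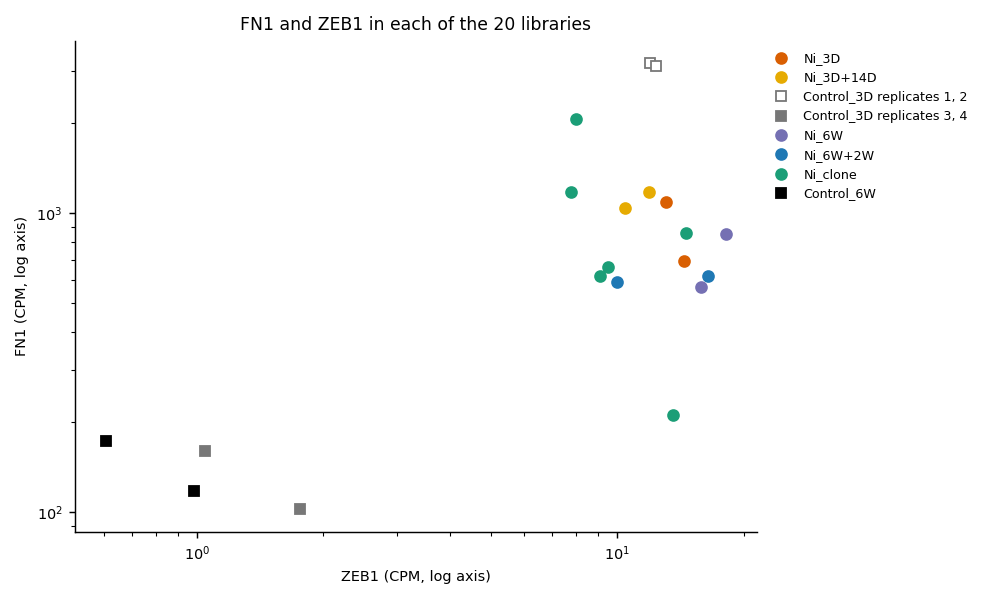
Each point is 1 of the 20 libraries, with ZEB1 on the x axis and FN1 on the y axis (CPM, log axes); circles are nickel-exposed, squares unexposed. The 4 unexposed libraries with under 2 CPM of ZEB1 have 102 to 173 CPM of FN1, and Ni_clone 1, with ZEB1 among the nickel-exposed values, has 212 CPM of FN1.

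The split of the 3-day controls touched the other genes less. The mean of replicates 1 and 2 over that of replicates 3 and 4 was 23.95 for FN1, and 30 of the 10777 genes averaging 5 CPM or more had a ratio as large. It was 2.49 for THBS2, 2.00 for TNC, 1.77 for POSTN, 1.69 for THBS1, 1.55 for FBN2, 1.38 for FBN1, 1.25 for LOX, 1.14 for LOXL2 and 0.956 for SPARC. In 8 of the 10 genes both libraries of the first pair were above both of the second, as in 27.8% of all those genes. The pairs were found in these data, so their difference is a description and was not tested.

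Cells in nickel for 3 days had more LOX and less SPARC and POSTN than unexposed cells. LOX was at 321 and 119 CPM in Ni_3D, against 66.8, 67.2, 60.2 and 47.1 CPM in Control_3D. Both nickel libraries were above all 4 controls, and LOX rose by 1.88 ± 0.34 (log2 fold change ± SE, 3.68-fold, 95% interval 1.21 to 2.54, edgeR quasi-likelihood test, adjusted p = 0.0146). SPARC, a collagen-binding protein, was at 492 and 274 CPM in Ni_3D, against 1442, 1094, 1636 and 1017 CPM in Control_3D. It fell by 1.75 ± 0.31 on the log2 scale (edgeR, adjusted p = 0.0128), with no overlap, and was lower in Ni_3D than in any of the other 18 libraries. POSTN gave 0 and 1 reads in Ni_3D, against 126, 86, 63 and 13 reads in Control_3D. Scaled for depth that is a ratio of 0.00257, with a 95% counting interval of 6.49e-05 to 0.0145 that covers counting error only, and POSTN fell in the same test (adjusted p = 0.00101). These 3 of 10 genes compare with 4.33% of the 14927 genes tested, 2.83% that rose and 1.51% that fell. The median log2 fold change was -0.63 over the 10 genes and 0.03 over all genes. The sign of the 10-gene median depended on the controls, at 0.12 against Control_3D replicates 3 and 4 alone and -1.16 against replicates 1 and 2 alone.

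The other 7 genes were not called by edgeR in this comparison, and DESeq2 called 1 of them, TNC. TNC, an adhesion-modulating glycoprotein, was at 230 and 71.1 CPM in Ni_3D, against 498, 539, 224 and 295 CPM in Control_3D (-1.36 ± 0.52, edgeR adjusted p = 0.136, DESeq2 adjusted p = 0.033). THBS1, an activator of latent TGF-beta, was at 302 and 159 CPM in Ni_3D, against 598, 832, 575 and 269 CPM in Control_3D (-1.29 ± 0.66, edgeR adjusted p = 0.255). FN1, whose value with all 4 controls averages over its split, gave -0.87 ± 1.12 (edgeR adjusted p = 0.664). FBN1, FBN2, THBS2 and LOXL2 lay between -0.40 and 0.21 on the log2 scale.

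**Figure D3:**
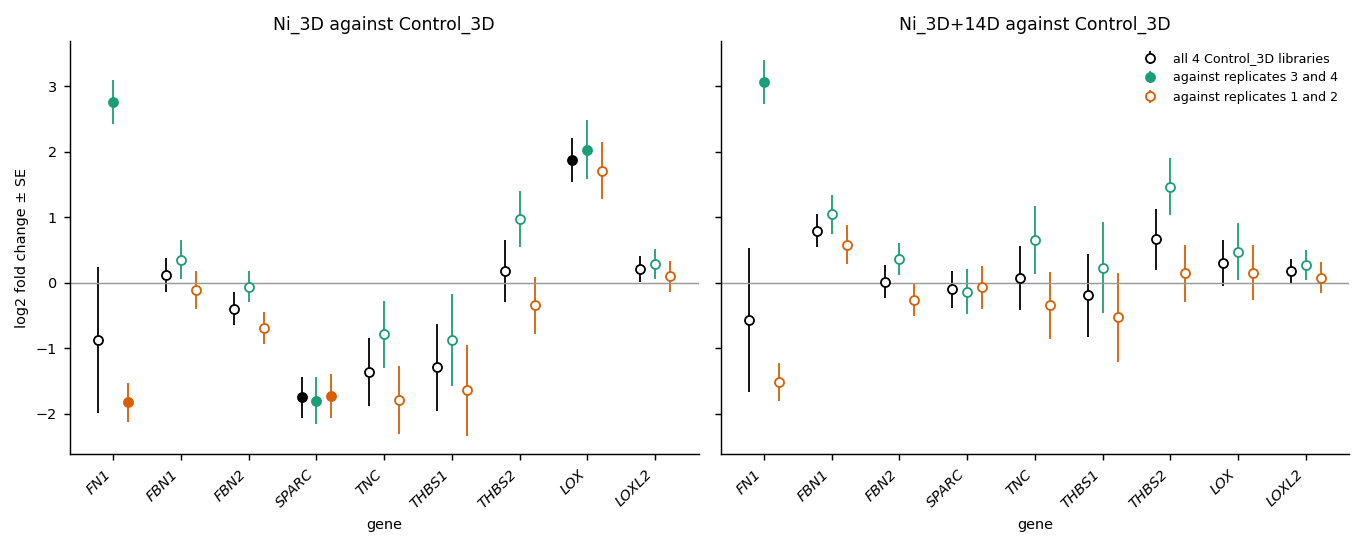
Fitted log2 fold changes (y axis, ± SE) of 9 genes (x axis) in Ni_3D and in Ni_3D+14D, against all 4 Control_3D libraries, replicates 3 and 4 only, or replicates 1 and 2 only; filled points have an adjusted p under 0.05 and POSTN is left out because of its low counts. For FN1 the sign depends on the controls, from 2.76 to -1.82 in Ni_3D, while SPARC stays between -1.73 and -1.80 and LOX between 1.71 and 2.03.

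The direction for FN1 depended on which 3-day controls were used. Against replicates 3 and 4 alone FN1 rose in Ni_3D by 2.76 ± 0.33 (edgeR adjusted p = 0.00223), and against replicates 1 and 2 alone it fell by 1.82 ± 0.29 on the log2 scale (edgeR adjusted p = 0.0239). As the pairs were found in these data and FN1 splits them, the edgeR p-values of FN1 against 1 pair, here and below, are descriptive only. Between the same pairs THBS2 went from 0.97 ± 0.43 to -0.35 ± 0.43 and FBN1 from 0.35 ± 0.29 to -0.11 ± 0.29, without a call. SPARC fell against either pair, by 1.80 ± 0.36 without replicates 1 and 2 (edgeR adjusted p = 0.0159) and by 1.73 ± 0.33 without replicates 3 and 4 (edgeR adjusted p = 0.0454). POSTN fell against either pair too, with adjusted p of 0.00295 and 0.0112. LOX rose by 2.03 ± 0.45 without replicates 1 and 2 (edgeR adjusted p = 0.0232), and its value without replicates 3 and 4 was 1.71 ± 0.43 (edgeR adjusted p = 0.102). The share of all genes called was 7.95% without replicates 1 and 2 and 0.813% without replicates 3 and 4.

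The size of the LOX value rested on 1 nickel library. Ni_3D replicate 1 was above replicate 2 in all 9 genes other than POSTN, by 1.37-fold for FBN2 to 3.24-fold for TNC. Of all genes averaging 5 CPM or more, 47.7% were higher in replicate 1 and 15.5% by 1.37-fold or more. Replicate 1 is also the nickel library with TFF1 and ESR1, and the part of that in these values was not tested. Without Ni_3D replicate 1, LOX was at 0.97 (edgeR adjusted p = 0.162), and without it and Control_3D replicate 1 at 1.02 ± 0.35 (edgeR adjusted p = 0.172). SPARC still fell without both libraries (-2.20 ± 0.40, edgeR adjusted p = 0.0421), as did POSTN (adjusted p = 0.0357), when 0.493% of all genes were called. SPARC was not called without Ni_3D replicate 2 (edgeR adjusted p = 0.116).

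After the further 14 days, the LOX and SPARC values were again near those of the controls. LOX was at 65.7 and 84.5 CPM in Ni_3D+14D (0.31 ± 0.35, 95% interval -0.377 to 0.995), and SPARC at 1094 and 1335 CPM (-0.10 ± 0.29, interval -0.66 to 0.46). POSTN gave 24 and 16 reads, a ratio of 0.260 to Control_3D (95% counting interval 0.182 to 0.362). FBN1, the main fibrillin of adult microfibrils, was at 268 and 287 CPM in Ni_3D+14D, against 197, 172, 125 and 142 CPM in Control_3D. Both nickel libraries were above all controls, but at 0.80 ± 0.25 FBN1 did not pass (edgeR adjusted p = 0.979). None of the 10 genes was called by edgeR, where 0.0% of genes were, and none by DESeq2; 2 had an unadjusted p under 0.05. Against Control_3D replicates 3 and 4 alone FN1 rose by 3.07 ± 0.34 (edgeR adjusted p = 0.00158, with 0.758% of genes called), and against replicates 1 and 2 alone it was at -1.51 ± 0.29 (edgeR adjusted p = 0.609). TNC, THBS1 and FBN2 also turned from positive to negative values between these pairs, without a call. Without Control_3D replicate 1 and Ni_3D replicate 1 none of the 10 was called and FN1 was at -0.03 ± 1.14.

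Set directly against Ni_3D, Ni_3D+14D had more POSTN. The 40 reads in Ni_3D+14D and 1 read in Ni_3D give a ratio of Ni_3D to Ni_3D+14D of 0.00991 (95% counting interval 0.000245 to 0.0585), and POSTN rose (edgeR adjusted p = 0.0226) where 0.255% of all genes were called. That call was lost without any 1 of the 4 libraries (adjusted p of 0.0725 to 0.146). SPARC averaged 1214 ± 170 CPM in Ni_3D+14D and 383 ± 155 CPM in Ni_3D (SD, n = 2 each), a log2 fold change of 1.65 ± 0.34 with an edgeR adjusted p of 0.0713. LOX averaged 75.1 ± 13.3 CPM in Ni_3D+14D and 220 ± 143 CPM in Ni_3D (-1.57 ± 0.42, edgeR adjusted p = 0.14). DESeq2 called both. Without Control_3D replicate 1 and Ni_3D replicate 1 none of the 10 genes was called by edgeR (0.105% of genes called).

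After 6 weeks in nickel POSTN was undetected. It gave 0 reads in both Ni_6W libraries, which allows up to 0.0874 CPM over the group at 3 reads, against 26 and 31 reads in Control_6W, so it was at least 18.8-fold lower. POSTN fell (edgeR adjusted p = 0.0497) and was the only 1 of the 10 genes called by edgeR, beside 2.47% of 14927 genes. The call did not hold without Control_6W replicate 2 or without Ni_6W replicate 1. THBS1 was at 162 and 275 CPM in Ni_6W, against 547 and 2713 CPM in Control_6W, whose replicates differed 4.96-fold. Its log2 fold change was -2.90 ± 0.77 (edgeR adjusted p = 0.0631), -1.33 ± 0.66 without Control_6W replicate 2 (adjusted p = 0.333) and -3.64 ± 0.67 without Control_6W replicate 1 (adjusted p = 0.0241), and DESeq2 called it with all libraries (adjusted p = 0.00474). TNC was at 201 and 258 CPM in Ni_6W, against 231 and 657 CPM in Control_6W, with overlap.

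FN1 was higher in both Ni_6W libraries (567 and 855 CPM) than in both Control_6W libraries (118 and 173 CPM), a log2 fold change of 2.29 ± 1.30. It did not pass where all 14 uncloned libraries shared 1 estimate of the spread (edgeR adjusted p = 0.285), an estimate that holds the split of Control_3D. With only Ni_6W and Control_6W in the fit, FN1 rose by 2.29 ± 0.37 (edgeR adjusted p = 0.0303, with 111 of 13741 genes called). LOX was at 114 and 102 CPM in Ni_6W, against 34.1 and 70.7 CPM in Control_6W (1.05 ± 0.41, edgeR adjusted p = 0.131). THBS2, which binds matrix metalloproteinases, was at 275 and 315 CPM in Ni_6W, against 148 and 129 CPM in Control_6W (1.10 ± 0.56, edgeR adjusted p = 0.234). FBN1 was at 152 and 239 CPM in Ni_6W, against 136 and 114 CPM in Control_6W (0.65 ± 0.30, edgeR adjusted p = 0.191). SPARC, lower after 3 days of nickel, was at 1655 and 929 CPM in Ni_6W, against 1434 and 1225 CPM in Control_6W, with overlap (-0.03 ± 0.33, interval -0.68 to 0.61).

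After the 2 weeks without nickel no gene of the 10 was called in Ni_6W+2W against Control_6W by edgeR, where 0.0% of genes were; 3 had an unadjusted p under 0.05, and DESeq2 called POSTN. POSTN gave 3 and 4 reads in Ni_6W+2W, a ratio of 0.0736 to Control_6W (95% counting interval 0.0283 to 0.162). FN1 was at 589 and 618 CPM in Ni_6W+2W (2.05 ± 1.29, edgeR adjusted p = 0.522). With only the 2 groups in the fit it rose by 2.06 ± 0.27 (edgeR adjusted p = 0.0449, with 39 of 13777 genes called). FBN1 was at 250 and 263 CPM, above both controls (1.03 ± 0.30, edgeR adjusted p = 0.259), and THBS2 at 459 and 274 CPM, also above both (1.41 ± 0.57, edgeR adjusted p = 0.323). Against Ni_6W itself, Ni_6W+2W had no member called by either tool, with 1 at an unadjusted p under 0.05 (0.0% of genes called). THBS1 was at 930 and 374 CPM in Ni_6W+2W, above both Ni_6W libraries (1.58 ± 0.74, edgeR adjusted p = 0.733).

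In the 6 clones FBN1 was the gene that differed most evenly from Control_6W. It was at 307, 222, 256, 317, 301 and 297 CPM in clones 1 to 6, against 136 and 114 CPM in Control_6W. All 6 clones were above both controls, and FBN1 rose by 1.20 ± 0.17 (95% interval 0.87 to 1.53, edgeR adjusted p = 0.0114). It was the only 1 of the 10 called by edgeR, beside 5.26% of 14172 genes. Without Control_6W replicate 2 its value was 1.07 ± 0.22 and was not called (edgeR adjusted p = 0.119). FN1 was at 212, 1183, 2076, 663, 617 and 860 CPM in clones 1 to 6, all above the 118 and 173 CPM of Control_6W (2.71 ± 0.77, edgeR adjusted p = 0.0736). THBS2 was at 123, 397, 504, 349, 461 and 311 CPM in clones 1 to 6, against 148 and 129 CPM in Control_6W, so that clone 1 was below both controls and the other 5 above (1.39 ± 0.44, edgeR adjusted p = 0.0957). Without clone 1 edgeR called both, FN1 at an adjusted p of 0.0328 and THBS2 at 0.00902, beside 816 of 13987 genes. DESeq2 called both with all 6 clones, FN1 at an adjusted p of 0.00617 and THBS2 at 0.0056. POSTN gave 0, 20, 5, 0, 2 and 0 reads, a pooled ratio of 0.145 to Control_6W (95% counting interval 0.0882 to 0.233), with an edgeR adjusted p of 0.159 across clones.

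**Figure D4:**
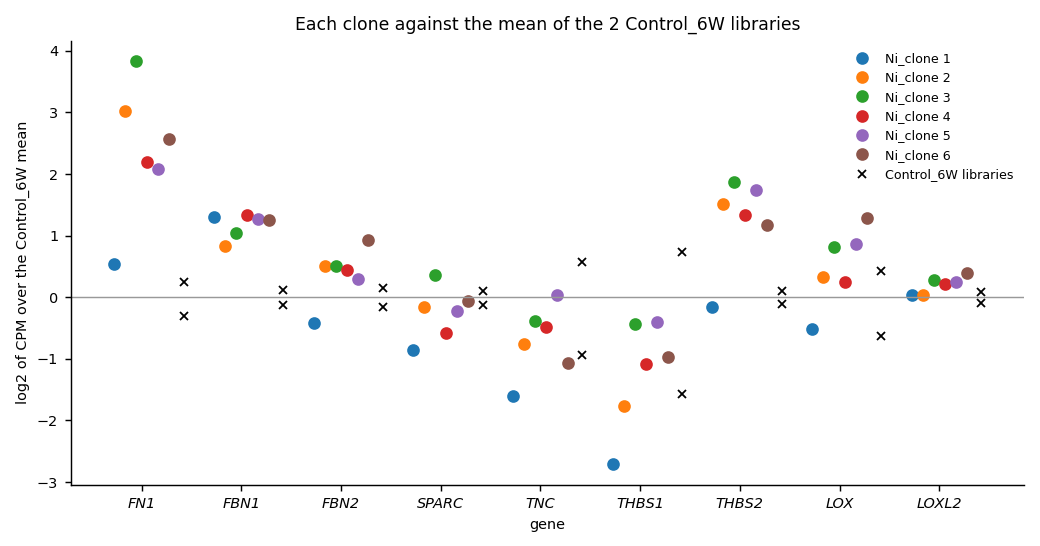
For 9 genes (x axis), each coloured point is the log2 ratio of 1 clone's CPM to the mean of the 2 Control_6W libraries (y axis), and crosses are those 2 libraries. FBN1 lies above both crosses in all 6 clones, and clone 1 is the lowest point for 7 of the 9 genes.

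Of the 9 genes other than POSTN, FN1 differed most between the clones. Its log2 CPM had an SD of 1.10 between clones, larger than in 99.2% of the genes averaging 5 CPM or more, whose median SD was 0.201. THBS1 (SD 0.881), THBS2 (0.735), LOX (0.628) and TNC (0.572) also exceeded at least 95% of those genes. FBN1 (0.199) and LOXL2 (0.141) were near or below the median. Clone 1 was lowest in 7 of the 9 genes other than POSTN and highest in none. Among 10959 genes compared in the same way, clone 1 was lowest in 27.2% and highest in 22.7%. Its ZEB1 level was within the range of the other nickel-exposed libraries, as the plot of FN1 against ZEB1 shows. Against Ni_6W+2W, the uncloned cells after washing, no gene of the 9 tested by edgeR was called in the clones and none had an unadjusted p under 0.05, with 0.028% of genes called. POSTN did not pass the count filter of edgeR there, and DESeq2, which tested all 10, called none of them.

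**Figure D5:**
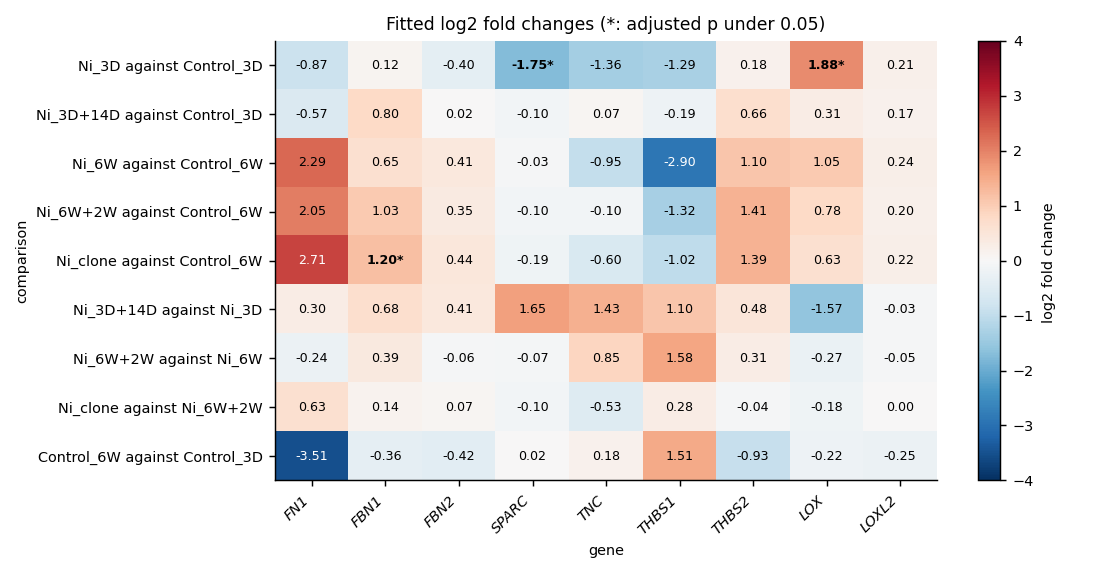
Fitted log2 fold changes of 9 genes (columns) in 9 comparisons (rows), coloured by size and direction, with an asterisk where the adjusted p is under 0.05; POSTN is left out because its fitted values depend on counts of 0. Only SPARC (-1.75) and LOX (1.88) in Ni_3D and FBN1 (1.20) in the clones carry an asterisk.

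None of the 10 genes was called by edgeR or DESeq2 in Control_6W against Control_3D (0.0% of genes called by edgeR; 2 of the 10 at an unadjusted p under 0.05). FN1 was at 0.15 ± 0.31 against Control_3D replicates 3 and 4 alone, and fell by 4.44 ± 0.33 on the log2 scale against replicates 1 and 2 alone (edgeR adjusted p = 6.72e-05, with 2.02% of genes called). The pairs were found in these data and FN1 splits them. Its p-values against 1 pair, here and in the differences of responses below, are therefore descriptive only. Without both replicate 1 libraries FN1 was at -2.95 ± 1.30 and none of the 10 was called. Whether the long and the short response differed was tested as a difference of fold changes. For SPARC, 6 weeks against 3 days in nickel gave 1.72 ± 0.44 (edgeR adjusted p = 0.253), and no gene of the 10 passed, with 1 at an unadjusted p under 0.05 and 0.0% of genes called; DESeq2 called SPARC (adjusted p = 0.0184). For FN1 that difference was 3.16 ± 1.72 (edgeR adjusted p = 0.525) with all controls and -0.46 ± 0.44 without Control_3D replicates 1 and 2. Without Control_3D replicate 1 and Ni_3D replicate 1 none of the 10 genes was called by edgeR (0.00658% of genes called). Without replicates 3 and 4 the FN1 difference was 4.11 ± 0.42 (edgeR adjusted p = 0.00179, with 0.679% of genes called). The same difference between the Ni_6W+2W and the Ni_3D+14D responses gave no call and no unadjusted p under 0.05 in the 10 genes (0.0% of genes called by edgeR), but FN1 was at 3.56 ± 0.42 without Control_3D replicates 3 and 4 (edgeR adjusted p = 0.0043, with 0.343% of genes called) and at -1.02 ± 0.44 without Control_3D replicates 1 and 2.

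Other genes of the same pathways were counted by list. Of 14 genes that crosslink or modify collagen, 2 rose and none fell in Ni_3D against Control_3D, beside the 4.33% of all genes given above. They were P4HA1 and P4HA2, catalytic subunits of collagen prolyl 4-hydroxylase, which like LOX are known hypoxia-inducible genes. P4HA2 averaged 476 ± 1.4 CPM in Ni_3D (n = 2) and 152 ± 18.7 CPM in Control_3D (n = 4), a log2 fold change of 1.66 ± 0.15 (edgeR adjusted p = 0.000224). P4HA1 averaged 320 ± 106 CPM in Ni_3D and 79.0 ± 21.1 CPM in Control_3D (2.03 ± 0.28, edgeR adjusted p = 0.00294). Both calls held without any 1 of the 6 libraries and against either pair of controls: replicates 3 and 4 alone gave 1.72 for P4HA1 and 1.67 for P4HA2, and replicates 1 and 2 alone gave 2.38 and 1.62. Without Control_3D replicate 1 and Ni_3D replicate 1, P4HA2 still rose (1.71 ± 0.20, edgeR adjusted p = 0.0104) and P4HA1 was not called (edgeR adjusted p = 0.0701). In Ni_3D+14D against Ni_3D, P4HA2 fell, at 240 ± 8.77 CPM in Ni_3D+14D and 476 ± 1.4 CPM in Ni_3D (edgeR adjusted p = 0.045), beside 0.255% of all genes. That call was lost without any 1 of the 4 libraries, at log2 fold changes of -1.03 to -0.95.

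Of 17 tested microfibril and elastic fibre genes, 1 rose in Ni_6W against Control_6W, beside 2.47% of all genes, and none was called in the other comparisons. It was MFAP2, a microfibril-associated glycoprotein, at 5.42 ± 2.44 CPM in Ni_6W and 0.766 ± 0.464 CPM in Control_6W (2.84 ± 0.66, edgeR adjusted p = 0.0497), called without 1 of the 4 libraries only. Of 12 tested fibronectin receptor and assembly genes, 2 rose in the clones against Control_6W, beside 5.26% of all genes. ITGAV, an integrin chain that binds fibronectin, was at 156 to 234 CPM in the 6 clones and at 104 to 128 CPM in Control_6W (0.78 ± 0.17, edgeR adjusted p = 0.0342). ITGA4, a chain of the alpha-4 integrins that bind a spliced segment of fibronectin, was at 4.95 to 37.8 CPM in the clones and at 0.767 to 1.89 CPM in Control_6W (4.10 ± 0.94, edgeR adjusted p = 0.0419). Each held in 3 of 8 fits that left out 1 library. Of the other matricellular genes, of which 10 or 11 were tested, none was called in any of these comparisons.

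Likeness of pattern was measured as the root mean square difference of log2 CPM over the 20 libraries, each gene centred on its mean, among 10950 genes. The gene nearest FN1 was COL5A1, a chain of the fibrillar collagen V, at 0.669, where the SD of FN1 itself was 1.44. COL5A1 had 593 and 390 CPM in Control_3D replicates 1 and 2, 110 and 74.2 CPM in replicates 3 and 4, and 79.4 and 79.3 CPM in Control_6W. GALNT14 (0.766), FAT3 (0.806), ELAVL2 (0.809) and DOCK2 (0.816) followed. The nearest gene was FBLN2, a basement membrane and elastic fibre protein, for SPARC (0.309), EFEMP1, another fibulin, for THBS2 (0.329), LIMA1 for TNC (0.411), KITLG for THBS1 (0.567) and DNAJC25 for LOX (0.399). For FBN1 it was UACA (0.254), for FBN2 NNT (0.155), for LOXL2 ATRAID (0.136) and for POSTN DUSP2 (1.502).

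The authors' deposited tables of their own comparisons used 1 pair of 3-day controls. In the authors' deposited tables the 3-day control RPKM equals the mean of Control_3D replicates 3 and 4, within 0.1% plus 0.0001 RPKM, in 100% of genes. FN1 has a log2 ratio of 2.51 for Ni_3D (adjusted p = 2.86e-16) and 2.81 for Ni_3D+14D (adjusted p = 1.04e-64) in the authors' deposited tables. For Ni_3D the authors' deposited table also has LOX at 1.74, SPARC at -1.61 and POSTN at -3.18, and 4 of the 10 genes have an adjusted p under 0.05, as have 12.9% of the 25411 genes listed. The nickel RPKM there is not the mean of the 2 Ni_3D libraries. LOX has 42.08 against a mean of 37.83, and POSTN has 0.02538 against 0.003256. The authors' Ni_3D ratios thus rest on other nickel values, and the reason is not known. For Ni_3D+14D the authors' deposited table has 5 of the 10 genes under 0.05, beside 8.65% of all genes listed, with THBS2 at 1.34 and FBN1 at 1.0. Against Control_6W, all 6 clones have positive log2 ratios of FN1 (0.499 to 3.364) and FBN1 (0.745 to 1.225) in the authors' deposited tables, and none has a positive one of POSTN or THBS1. In CPM, however, THBS1 was at 249 to 1231 in the clones and overlapped the 547 and 2713 of Control_6W (-1.02 ± 0.62, edgeR adjusted p = 0.341). Its log2 fold change ranged from -1.76 to 0.55 in fits that left out 1 library.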

How the data were processed

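TruSeq libraries were made from total RNA of BEAS-2B cells, per the labels' protocols, with no statement on strand. The submitters' processing notes name STAR 2.4, DESeq, DESeq2, GRCh37 and hg19 without roles; the counting tool is not given in the sources used here. The deposited files hold raw read counts per RefSeq gene and RPKM for each library, and the authors' comparison tables hold RPKM, log2 ratios (for FN1 not equal to the log2 of the ratio of their RPKM columns) and, for the 3-day tables, an adjusted p-value. Counts were joined by RefSeq identifier because 28 symbols are altered in each of 2 libraries. They were tested with edgeR 4.0.16 in R 4.3.3: TMM scaling, filterByExpr (minimum count 10, minimum total 15), robust quasi-likelihood F tests and Benjamini-Hochberg adjustment over all genes tested, called at 0.05. The 14 uncloned libraries were fitted together, at a biological coefficient of variation of 29.7%; clone libraries entered separate fits, beside Control_6W alone (24.7%) and beside Ni_6W+2W alone (24.8%). CPM are TMM-scaled. DESeq2 1.42.0, RLE size factors, no filter, fits of the compared groups alone, a replicate block and left-out libraries were alternatives. POSTN ratios are of summed reads over summed effective library sizes, with exact 95% counting intervals; counting intervals and floors cover counting error only. The genes named are the 10 members, ZEB1, TFF1 and ESR1, the markers and the called members of 4 pathway lists, and the nearest genes; the members, lists and left-out pairs were chosen with earlier results of these data known. Promoter windows are RefSeq's on GRCh38.p14; 9 of the 10 genes are used, and no coordinate was moved between builds. LOXL2 is given without sequence or position.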

Additional observations from a re-analysis of the deposited data

Results flagged for a closer look

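The spread within a group was examined in 20 sets, each 1 gene in Control_3D (4 libraries) or in Ni_clone (6 libraries). Of these sets, 2 held a library far from the rest, and chance marks about 1 in 20. LOXL2 was highest in Control_3D replicate 1, the control library that held TFF1 and ESR1. It was at 722 CPM there against 558 to 574 CPM in the other 3, and the gap on the log2 scale was 0.89 of the range of the group. THBS2 was lowest in Ni_clone 1, at 123 CPM against 311 to 504 CPM in the other 5 clones, with a gap of 0.657 of the range. FBN2 was higher in both Ni_6W libraries (406 and 493 CPM) than in both Control_6W libraries (374 and 303 CPM), while both Ni_3D libraries (392 and 287 CPM) were below the mean of Control_3D. The higher Ni_3D library was above Control_3D replicates 3 and 4 (370 and 334 CPM). The mean log2 changes differed by 0.793. As a contrast of 4 group means the difference was 0.81 ± 0.38 (edgeR adjusted p = 0.462), which did not pass.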

How the results depend on the processing

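Of 1377 values of the 10 genes under the alternatives, 1228 kept their direction and their side of the threshold, 107 with no call turned sign, 26 came to be called and 14 lost their call. The other 2 were FN1, whose sign turned and which came to be called, at 2.76 in Ni_3D and 3.07 in Ni_3D+14D without Control_3D replicates 1 and 2, where 1 of the 10 genes was called in Ni_3D+14D. Under DESeq2 the count of called genes was 4 in Ni_3D against Control_3D, with TNC added, 2 in Ni_6W, 1 in Ni_6W+2W, 3 in the clones, 3 in Ni_3D+14D against Ni_3D and 1 in the difference between 6 weeks and 3 days. With only the compared groups it was 2 in Ni_6W, 1 in Ni_6W+2W and 2 in Ni_3D+14D against Ni_3D, where it was also 2 with no filter and 0 without Control_3D replicate 1 and Ni_3D replicate 1. Without Control_3D replicates 3 and 4 it was 1 in Control_6W against Control_3D and 1 in each difference of responses. Leaving out 1 library gave 0 to 2 in Ni_6W, 0 to 3 in the clones, 0 to 0 in Ni_3D+14D against Ni_3D and 0 to 1 in the difference between 6 weeks and 3 days. With 1 library left in a group, that library is assumed to vary like the others. With the replicate number as a block the count was 2 in Ni_6W, 1 in Ni_6W+2W, 0 in the clones, 1 in Control_6W against Control_3D and 1 in each difference of responses. In Ni_3D against Control_3D it stayed at 3 with the block, where LOX was not called (1.73, adjusted p = 0.12) and FN1 fell by 1.80 (adjusted p = 0.0353). Numbers 3 and 4 occur among the uncloned libraries only in Control_3D, so the block leaves those 2 libraries no weight, and clone numbers name clones. Same-numbered libraries deviated together weakly (correlations across 14940 genes of 0.118, -0.0492, 0.256 and 0.151 for 4 pairs of groups with 2 libraries each), so the numbers were not taken as pairs. Over all genes, edgeR called 647 of 14927 in Ni_3D against Control_3D and 368 of 14927 in Ni_6W. It called 746 of 14172 in the clones and 38 of 14927 in Ni_3D+14D against Ni_3D. Out of 25411 genes, DESeq2 called 1886, 2098, 2002 and 450 in these comparisons. With the block the count was 92 of 14927 in Ni_3D against Control_3D, 761 of 14927 in Ni_6W and 21 of 14172 in the clones. The block gave 128 in Ni_6W+2W, 281 in Control_6W against Control_3D and 70 and 28 in the differences of responses, each of 14927. With only the compared groups it was 111 of 13741 in Ni_6W and 39 of 13777 in Ni_6W+2W. In Ni_3D+14D against Ni_3D it was 243 of 14923 with only those groups and 59 of 21577 with no filter. DESeq2 called 323 in Ni_6W+2W, 16 in Ni_3D+14D against Control_3D, 48 in Control_6W against Control_3D and 197 in the difference between 6 weeks and 3 days, where edgeR called 0. The cause of the changes was not tested. At 3 reads, POSTN could be as high as 0.0874 CPM in Ni_6W, the highest such floor of the 7 groups.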
